A study of Homo sapiens with 15 samples.

Results

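KLF1, ZFPM1, GFI1B, BCL11A and NFE2 encode 5 regulators of red cell development, and the binding of GATA2, RUNX1 and the cohesin subunit SMC3 was described across 1 window of the hg19 genome around each gene. A called peak belonged to a locus when its summit, the base of highest ChIP signal, lay in chr19:12970000-13020000 for KLF1, chr16:88500000-88630000 for ZFPM1, chr9:135800000-135900000 for GFI1B, chr2:60660000-60820000 for BCL11A or chr12:54670000-54710000 for NFE2. Of the 198298 peaks in the 6 deposited lists, 120 had their summit in these windows, which span 480 kb in all. Overlapping peaks of any list were joined into 57 sites.

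The lists come from TF-1, an erythroleukemia cell line, grown in medium with added cytokines and carrying a vector that expresses wild-type (WT) RAD21 or the mutant RAD21 Q592* when doxycycline (DOX) is given. RAD21 is a core subunit of cohesin, as is SMC3, and both lines had received DOX for 6 days, so every sample shares the vector system and the drug. The labels do not say whether either line is a clone or whether the cells' own RAD21 was still made. Among the 15 samples are 11 ChIP libraries and 4 inputs, and each line has 2 libraries per target, except that RUNX1 in Q592* has 1. Each line and target has 1 peak list, read as a merged call over the libraries of its group from the word merge in its peak names, so no value has a replicate spread, no difference between the lines could be tested, and every interval given covers counting error only. In chromatin from many cells, a smaller share of cells bound and weaker binding in each cell cannot be told apart. No expression was measured, so the cell line could not be checked against its marker genes.

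GATA2 is a zinc-finger factor of blood stem and progenitor cells whose sites pass to GATA1 as erythroid cells mature, and RUNX1 is a factor of early blood formation that is often found on the same regulatory elements. Cohesin is a ring-shaped complex that holds chromatin loops and gathers at sites of the insulator factor CTCF as well as at enhancers. KLF1 activates globin and other late erythroid genes, ZFPM1 (FOG1) is the cofactor that GATA proteins bind, GFI1B is a repressor needed in erythroid cells and megakaryocytes, BCL11A represses the fetal globin genes, and NFE2 pairs with small MAF proteins at the globin locus control region.

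In the order of genes on the RefSeq GRCh38.p14 assembly, KLF1 lies between DNASE2 and GCDH, GFI1B between TSC1 and GTF3C5, and NFE2 between HNRNPA1 and COPZ1, while ZC3H18 follows ZFPM1 and PAPOLG follows BCL11A. The RefSeq table of promoters, on build GRCh38.p14, matched 4 of the 5 genes (KLF1, ZFPM1, GFI1B and BCL11A) with 9 promoters, each reaching from 250 bases before to 50 after a transcript start. A script searched both strands for a GATA motif spelled AGATAA or TGATAA, a RUNX motif spelled TGTGGT and the CTCF core motif. The GATA motif was present in the KLF1 promoter and in 1 of the GFI1B promoters, which are printed with its letters in capitals. The ZFPM1 and BCL11A promoters held neither of the 2 GATA spellings, and other spellings were not searched. All 5 loci carried GATA2 peaks in both lines, but these were counted over the whole windows, so they do not bear on the promoter motifs. The KLF1 promoter lies on the minus strand at chr19:12887152-12887451 and the GFI1B promoter on the plus strand at chr9:132978444-132978743, both in GRCh38.p14, and since the peaks are on hg19 the sequences were not placed against them.
KLF1 promoter: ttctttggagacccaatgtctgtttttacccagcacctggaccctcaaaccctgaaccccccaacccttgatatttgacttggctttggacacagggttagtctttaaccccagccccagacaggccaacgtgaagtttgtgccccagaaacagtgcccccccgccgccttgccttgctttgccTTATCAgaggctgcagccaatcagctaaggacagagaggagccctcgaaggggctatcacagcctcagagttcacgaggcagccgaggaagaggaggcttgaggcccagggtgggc
GFI1B promoter 2: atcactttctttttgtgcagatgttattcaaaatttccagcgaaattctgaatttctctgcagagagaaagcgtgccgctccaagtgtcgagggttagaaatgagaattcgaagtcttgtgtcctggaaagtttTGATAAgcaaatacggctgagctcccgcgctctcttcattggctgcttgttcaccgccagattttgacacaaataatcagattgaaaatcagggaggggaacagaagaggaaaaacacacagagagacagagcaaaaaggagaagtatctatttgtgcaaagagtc
In the KLF1 promoter the match is TTATCA, the reverse complement of TGATAA, starting at base 185 from the 5′ end, and in GFI1B promoter 2 it is TGATAA starting at base 135. BCL11A promoter 1 held a RUNX motif and the ZFPM1 promoter a CTCF core. Among all 35116 promoters of the table, 16.3% held the GATA motif, 13.1% the RUNX motif and 4.64% the CTCF core.

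The pooled ChIP totals, recovered from the deposited values, were 104 to 108 M reads (M stands for 1000000) for the 3 WT lists and 93.4 to 107 M for the 3 Q592* lists. The background pools came out at 86.7 M for WT RUNX1 and WT SMC3 but 95.3 M for WT GATA2. In Q592* they came out at 78.0 M for GATA2 and RUNX1 but 72.6 M for SMC3. Whether the pool or the assumed fragment length differs for WT GATA2 and Q592* SMC3 was not tested. The GATA2 and SMC3 ratios per M rest on these totals. The lists held 38962 GATA2, 9603 RUNX1 and 42353 SMC3 peaks in WT and 59009, 15582 and 32789 in Q592*. Binding at a peak is given below as its summit pileup, the number of ChIP fragments that cover the summit, per M ChIP reads. A region is a peak, or overlapping peaks of both lines, of 1 target. A region called in 1 line only is one without an overlapping peak in the list of the other line, which is not the same as absence of binding there.

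GATA2 and RUNX1 peaks in the 5 windows were more numerous in Q592*, and every WT peak of these factors had a counterpart in Q592*. GATA2 had 23 peaks in WT and 39 in Q592*, RUNX1 had 6 and 16, and SMC3 went the other way, with 22 in WT and 14 in Q592*. Of the 39 GATA2 regions, 23 (59.0%, exact Clopper-Pearson 95% interval 42.1 to 74.4%) were called in both lines, 16 (41.0%, 25.6 to 57.9%) in Q592* only and 0 in WT only, which allows a share of up to 9.03%. Over the whole genome, 51.9% of GATA2 regions were called in both lines, 40.1% in Q592* only and 7.96% in WT only, so the split at these loci lay near the background.

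RUNX1 had 16 regions, of which 6 (37.5%, 15.2 to 64.6%) were called in both lines, 10 (62.5%, 35.4 to 84.8%) in Q592* only and 0 in WT only, which allows up to 20.6%. The genome-wide shares of RUNX1 regions were 46.0%, 44.4% and 9.59% in the same order, all within the intervals. SMC3 had 25 regions, with 11 (44%, 24.4 to 65.1%) called in both lines, 11 (44%) in WT only and 3 (12%, 2.55 to 31.2%) in Q592* only, against 65.6%, 27.6% and 6.84% genome-wide. The share called in both lines was thus just under that of all SMC3 regions by its counting interval, which treats neighbouring regions as independent. NFE2 supplied 8 of the 11 WT-only SMC3 regions, and without that window 3 were left. The same count fell to 3 when only peaks with a −log10 q of at least 10 were kept, and to 4 when the longer list was trimmed by −log10 q to the length of the shorter. In these 3 settings, in the same order, 9, 10 and 11 regions were called in both lines and 3, 1 and 3 in Q592* only. The share called in both lines was thus above 44% in each. No genome-wide share was computed for the trimmed lists.

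**Figure D1:**
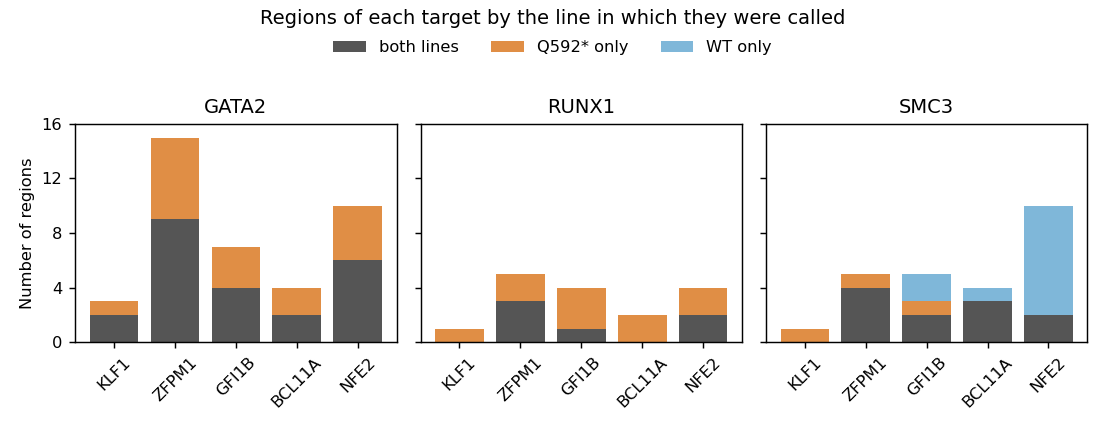
Number of regions (y axis) of GATA2, RUNX1 and SMC3 in each window (x axis), stacked by whether they were called in both lines, in Q592* only or in WT only. The GATA2 and RUNX1 bars hold no WT-only region, and 8 of the 11 WT-only SMC3 regions stand at NFE2.

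Where a region was called in both lines, GATA2 and RUNX1 pileup was higher in Q592* at each locus that had such a region. This held for 23 of 23 GATA2 regions, against 98.5% of the GATA2 regions called in both lines over the genome, and for 6 of 6 RUNX1 regions, against 97.4%. The median log2 ratio of Q592* over WT was 0.69 for GATA2 (0.21 to 1.15 over the regions; 0.81 genome-wide) and 0.72 for RUNX1 (0.64 to 0.97; 0.65 genome-wide). On the pileup scale the ratio at these loci was thus near that over the genome. On the deposited folds the median log2 ratio was 0.84 for GATA2 against 0.48 genome-wide, and 1.46 for RUNX1 against 0.33. The 95% counting interval of the ratio lay above 1 for 21 of 23 GATA2 and 6 of 6 RUNX1 regions. The share of regions with such an interval over the genome was not computed for any target. These counts therefore cannot show whether the loci differ from the rest of the genome.

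Among the loci, the median GATA2 ratio ran from 1.44 at ZFPM1 through 1.64 at NFE2, 1.65 at KLF1 and 1.70 at BCL11A to 2.01 at GFI1B. For SMC3, pileup per M was higher in Q592* at 7 of 11 regions, against 67.7% genome-wide, and at 2 of 11 over the mean coverage of each pool. The interval lay above 1 at 1 region per M and at 0 over mean coverage, where it lay below 1 at 3. Its median log2 ratio was 0.05 (−0.33 to 0.45) per M reads but −0.21 over the mean coverage of each pool, so its sign depends on the scaling. Relative to the median of all SMC3 regions called in both lines it was −0.06 on both of these scales, which differ by a constant, and 0.48 on the deposited folds.

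**Figure D2:**
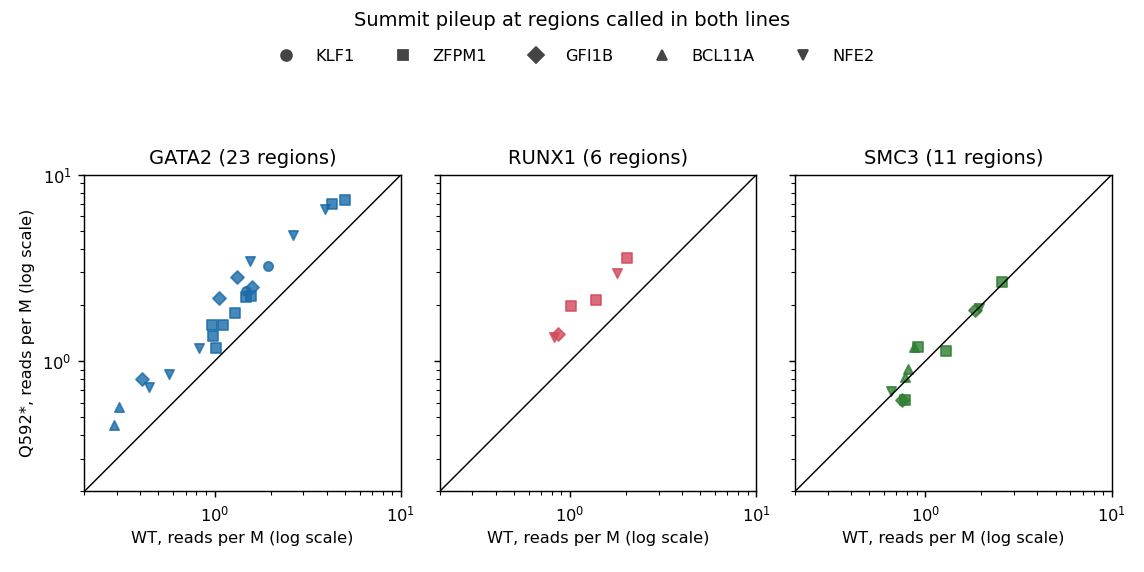
Summit pileup in reads per M in WT (x axis, log scale) and Q592* (y axis, log scale) at regions called in both lines, 1 point per region, with the marker shape for the locus and a line of equal values. All 23 GATA2 and 6 RUNX1 points lie above the line, while the 11 SMC3 points lie on both sides of it.

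ZFPM1 held the largest GATA2 group, with 9 peaks in WT spread over 70.3 kb and 15 in Q592* over 78.2 kb. All 9 WT peaks were called in Q592* too, and the other 6 of the 15 were called in Q592* only. Of all GATA2 regions of the genome, 40.1% were called in Q592* only. Whether the local background, which differed between the lines here (below), bears on these calls was not tested. The strongest WT GATA2 peak of the window, with its summit at 88564362, had a pileup of 5.01 reads per M in WT and 7.28 in Q592*, a ratio of 1.45 (1.30 to 1.63). It ranked 119 of 38962 in the WT list and 76 of 59009 in the Q592* list by −log10 q. A neighbour with its WT summit at 88558199 had 4.25 and 6.95 reads per M, a ratio of 1.63 (1.45 to 1.84).

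RUNX1 lay on 3 of the GATA2 regions of ZFPM1 in both lines, close to the GATA2 summits. At WT summit 88558203 its pileup was 2.03 reads per M in WT and 3.56 in Q592*, a ratio of 1.75 (1.48 to 2.08). At 88564319 the values were 1.37 and 2.14, and at 88566444 they were 1.01 and 1.99. GATA2 at the last of these, summit 88566449, measured 1.56 and 2.25 reads per M. The strongest region of the window called in 1 line was RUNX1 in Q592* at 88531577, with 1.39 reads per M and no overlapping GATA2 peak. It starts at 88531469, just past the end, at 88531440, of a GATA2 region called in both lines. Another Q592*-only RUNX1 region, at 88528556, lay on a GATA2 region that was also called in Q592* only.

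SMC3 at ZFPM1 had 4 regions called in both lines and 1 in Q592* only, and none overlapped a GATA2 or RUNX1 peak in either line. Over all SMC3 regions called in both lines, 16.04% carried GATA2 of WT and 20.25% GATA2 of Q592*. The lack of GATA2 at these 4 regions therefore does not set the locus apart. The strongest SMC3 region, at WT summit 88509616, had 2.58 reads per M in WT and 2.68 in Q592*, a ratio of 1.04 (0.87 to 1.24).

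The local background at shared regions differed between the lines at ZFPM1 and at other loci, and the deposited fold enrichment moves with it. MACS2 divides the pileup at a summit by a local background, given here as a multiple of the genome-wide level of the same background pool. At the 9 shared GATA2 regions of ZFPM1 that background was higher in WT at 9 of 9, with a median of 6.66 in WT and 3.81 in Q592*. At GFI1B it was higher in WT at 3 of 4, with medians of 2.72 and 2.04. At KLF1 the same held at 2 of 2, with medians of 10.05 and 8.22, and at BCL11A at 1 of 2. At NFE2 it was higher in WT at 1 of 6, with medians of 3.24 and 4.52, and over the genome at 28.6% of shared GATA2 regions. At WT summit 88558199 the deposited fold was 7.96 in WT over a background of 9.44, and 23.9 in Q592* over 4.78. The median log2 ratio of the deposited folds at the GATA2 regions was 1.22 at ZFPM1 and 0.20 at NFE2, while the median log2 ratio of the pileup was 0.52 and 0.72. The SMC3 regions shared by the lines had a higher background in WT at 10 of 11, against 52.4% genome-wide. Their median log2 ratio of the background, Q592* over WT, was −1.11 at GFI1B and −1.06 at ZFPM1. For RUNX1 that ratio was −0.91 at the 1 shared region of GFI1B and −0.87 at ZFPM1. The labels do not say that the inputs, 2 libraries per line, made up these background pools, and what differs between the lines at these loci was not tested.

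**Figure D3:**
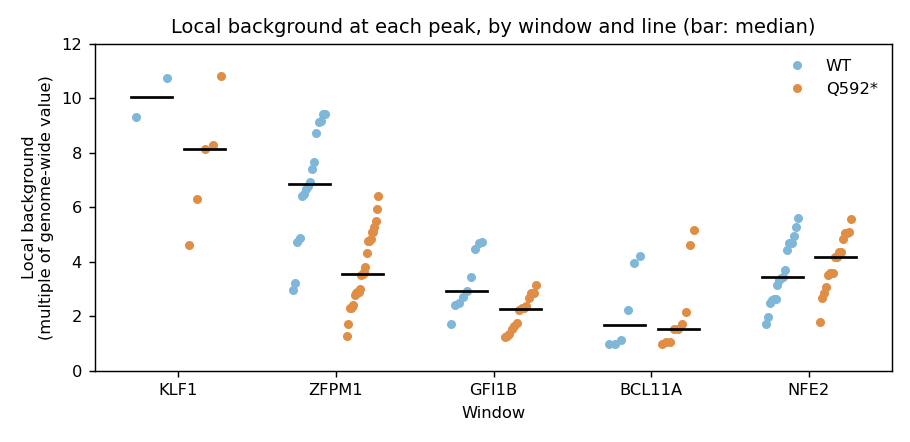
Local background at the summit of each called peak of any target (y axis, multiple of the genome-wide background of the same list) by window (x axis) and line, with bars for the medians. At ZFPM1 the median over all peaks is 6.86 in WT and 3.57 in Q592*, and at NFE2 it is 3.43 and 4.19.

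NFE2 had the densest binding of the 5 loci and the widest gap between the lines in SMC3 calls. GATA2 had 6 peaks in WT and 10 in Q592*, or 15 and 25 per 100 kb, against 1.25 and 2.5 per 100 kb at BCL11A. The strongest, at WT summit 54689668, had 3.92 reads per M in WT and 6.52 in Q592*, a ratio of 1.66 (1.47 to 1.88), and ranked 63 of 38962 in the WT list and 138 of 59009 in the Q592* list. A second at 54698320 had 2.65 and 4.77 reads per M, a ratio of 1.80 (1.56 to 2.09), and the one at 54683523 had 1.54 and 3.43, a ratio of 2.23 (1.85 to 2.69), the highest of the 23 GATA2 regions.

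The 2 RUNX1 regions of NFE2 that both lines shared lay on the first 2 of these GATA2 regions. RUNX1 had 1.79 reads per M in WT and 2.98 in Q592* at WT summit 54698295, and 0.821 and 1.35 at 54689640. A Q592*-only RUNX1 region at 54694924 had 1.81 reads per M and no GATA2 peak on it. By −log10 q (61.6) it was the strongest region called in 1 line in any of the 5 windows.

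SMC3 had 10 peaks at NFE2 in WT and 2 in Q592*. Each of the 6 WT GATA2 peaks of the window overlapped a WT SMC3 peak, against 26.3% of all WT GATA2 peaks. Most of these overlaps rest on weak SMC3 calls. With a −log10 q of at least 10, SMC3 overlapped 1 of 19 WT GATA2 peaks in the 5 windows together. The strongest SMC3 region here, at WT summit 54688153, had 1.93 reads per M in both lines, a ratio of 0.997 (0.81 to 1.23). The other shared SMC3 region, at 54698242, had 0.657 and 0.696. The 8 WT-only regions were weak, from 0.357 to 0.599 reads per M with a −log10 q of 2.998 to 19.2. GATA2 was called on 4 of these 8 regions in WT and on 6 of 8 in Q592*. Over all WT-only SMC3 regions of the genome these shares were 46.2% and 48.0%. With a −log10 q of at least 10, SMC3 had 2 peaks here in WT and 1 in Q592*, and with lists of equal length it had 4 and 2.

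NFE2 also held both WT sites with all 3 proteins. At chr12:54689356-54689912, the strongest GATA2 region, GATA2 and RUNX1 were called in both lines and SMC3 in WT only, at 0.560 reads per M. At chr12:54697943-54698693 all 3 were called in both lines. The SMC3 calls at these sites were weak, with a −log10 q of 6.27 in WT at the first and of 8.25 in WT and 7.98 in Q592* at the second. With a −log10 q of at least 10, SMC3 was therefore not called at either site.

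**Figure D4:**
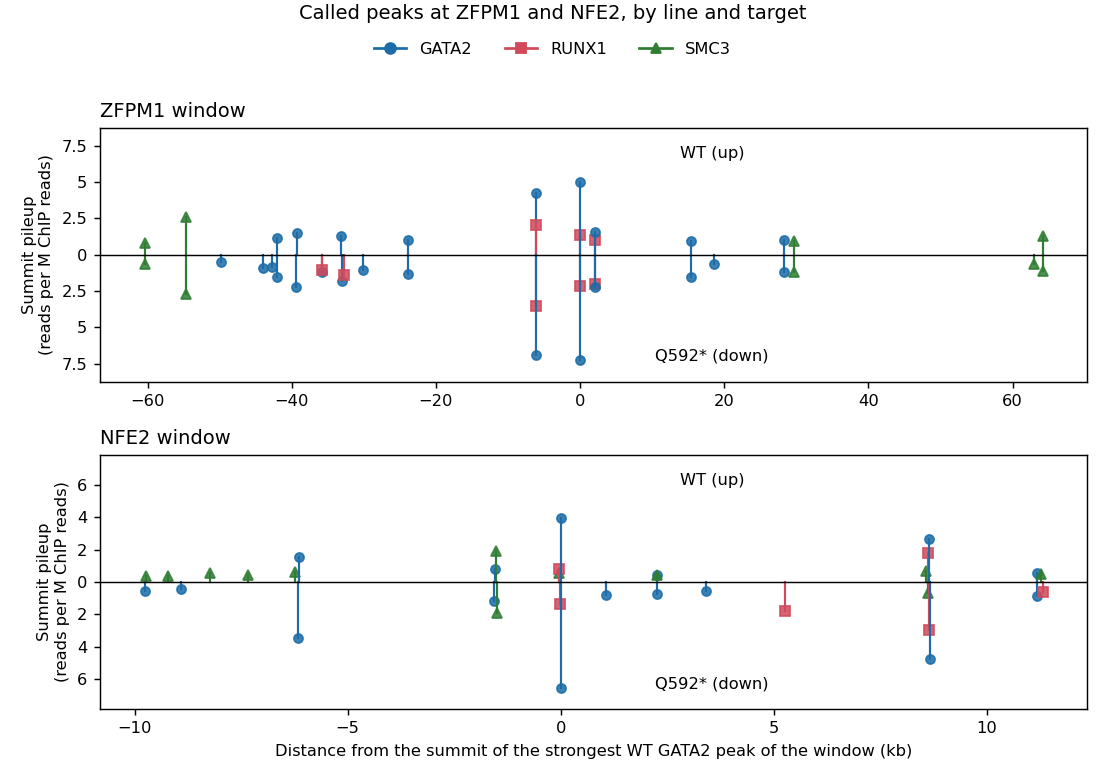
Called peaks in the ZFPM1 (top) and NFE2 (bottom) windows by distance in kb from the strongest WT GATA2 summit (x axis), with the summit pileup in reads per M ChIP reads (y axis) drawn upward for WT and downward for Q592*. Most RUNX1 stems share a position with GATA2, and at ZFPM1 no SMC3 peak overlaps either factor. At NFE2 SMC3 has 10 stems in WT and 2 in Q592*.

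At GFI1B, 4 GATA2 regions were called in both lines and 3 in Q592* only, and its shared regions had the highest median pileup ratio of the 5 loci, though by the deposited folds ZFPM1 was higher (median log2 of 1.22 against 1.12). The strongest WT peak, at 135879790, had 1.59 reads per M in WT and 2.51 in Q592*, a ratio of 1.58 (1.30 to 1.92). At 135874799 the values were 1.32 and 2.84, a ratio of 2.15 (1.76 to 2.64), and at 135878448 they were 1.06 and 2.19, a ratio of 2.07 (1.64 to 2.61). The fourth, at 135854019, was weaker, with 0.409 and 0.802 reads per M.

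RUNX1 at GFI1B was called once in WT and at 4 regions in Q592*, each of them on a GATA2 region. The shared one, at WT summit 135878582, had 0.859 reads per M in WT and 1.41 in Q592*, a ratio of 1.64 (1.25 to 2.15). The strongest region of the window called in 1 line was RUNX1 in Q592* at 135879618, with 0.768 reads per M, on the strongest GATA2 region. A weak Q592*-only SMC3 peak of 0.310 reads per M, with a −log10 q of 5.43, lay there too. By these calls chr9:135879394-135880033 held all 3 proteins in Q592* and GATA2 alone in WT. The strongest SMC3 region of the window, at WT summit 135897908, had 1.86 and 1.88 reads per M and no GATA2 or RUNX1 peak. The 2 WT-only SMC3 regions had 0.377 reads per M at 135874877, on a GATA2 region, and 0.580 at 135848153.

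KLF1 had 2 GATA2 regions called in both lines, 1.25 kb apart in WT, and 1 more in Q592* only. The 3 Q592* peaks spanned 22.4 kb. At the 2 shared regions the pileup was as follows. GATA2 measured 1.93 reads per M in WT and 3.24 in Q592* at WT summit 12997210, a ratio of 1.67 (1.40 to 2.00), and 1.47 and 2.38 at 12998459, a ratio of 1.62 (1.32 to 1.99). Neither carried RUNX1 or SMC3 in either line. The strongest Q592*-only region, a GATA2 peak at 13019553 with 0.812 reads per M, coincided with the only RUNX1 peak of the window, at 13019575 with 0.899 reads per M, and both lie near the window's end. A Q592*-only SMC3 peak at 12996441 had 1.25 reads per M over a local background of 10.8 times the genome-wide level, the highest of any peak in the 5 windows.

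BCL11A, with the widest window, had the lowest WT GATA2 pileups of the 5 loci and more SMC3 than GATA2 peaks in WT. GATA2 was called in both lines at 60683633, with 0.307 reads per M in WT and 0.566 in Q592*, a ratio of 1.84 (1.19 to 2.91), and at 60751286, with 0.288 and 0.453, a ratio of 1.57 (0.98 to 2.55). The second interval includes 1. The strongest Q592*-only region was GATA2 at 60816478, with 0.745 reads per M, more than either shared region in Q592*. RUNX1 had 0 peaks in WT and 2 in Q592*, at 60666751 with 0.909 reads per M and no GATA2, and at 60751313 with 0.337 on a shared GATA2 region.

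SMC3 at BCL11A was called in both lines at 3 regions, none of them on GATA2 or RUNX1. With genome-wide shares of 16.04% for GATA2 of WT and 20.25% for GATA2 of Q592*, its lack at 3 regions does not set this locus apart. The strongest SMC3 region in Q592*, and in WT, by −log10 q was at WT summit 60788094, with 0.812 and 0.9096 reads per M, a ratio of 1.12 (0.82 to 1.53). At 60777573 the values were 0.870 and 1.19, a ratio of 1.37 (1.03 to 1.82), the only SMC3 interval above 1 in the 5 windows, a call that was lost over mean coverage. A WT-only SMC3 region at 60792815 had 0.348 reads per M.

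**Figure D5:**
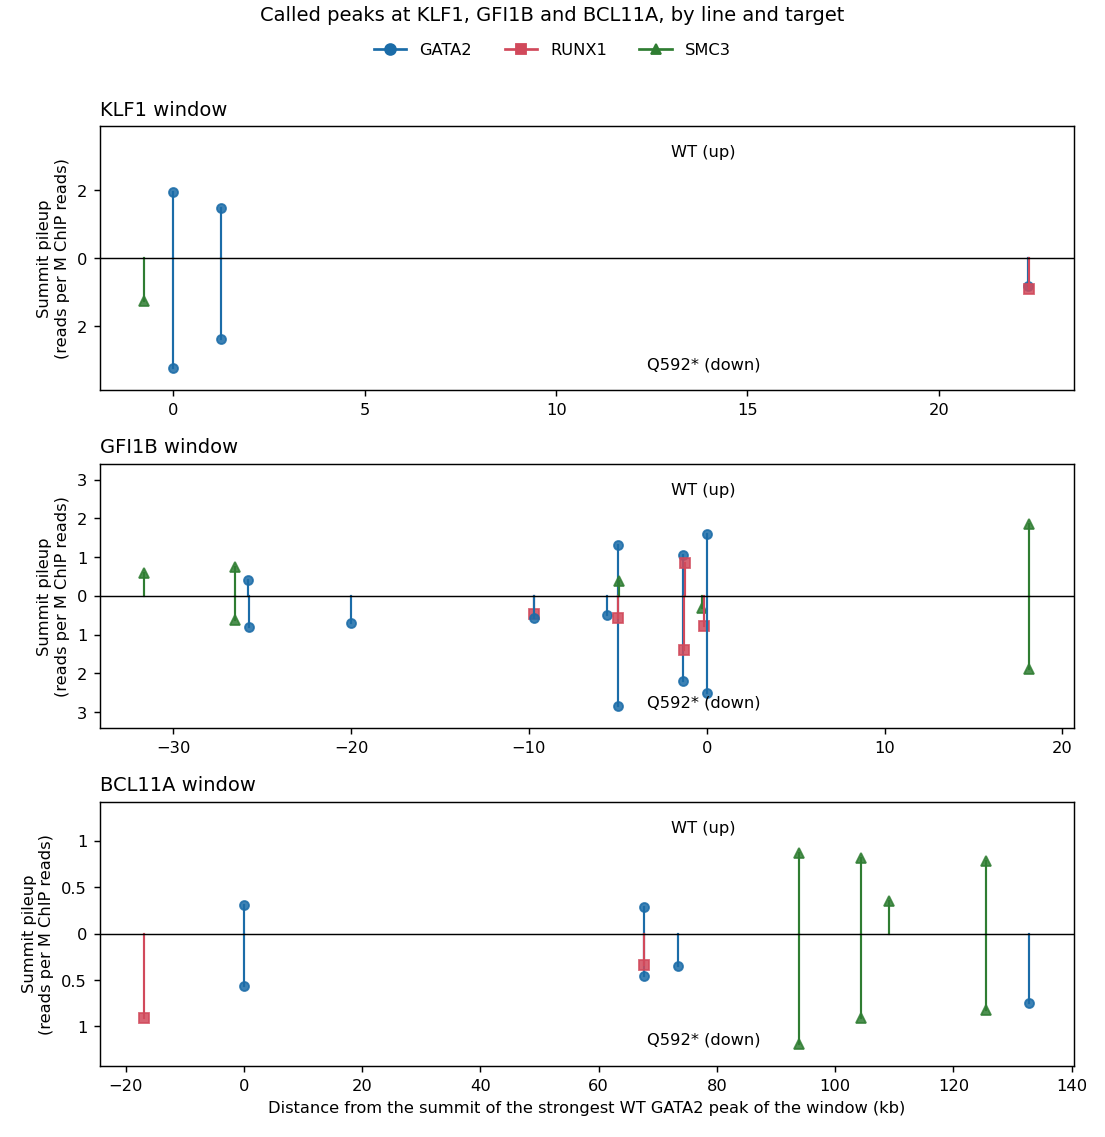
Called peaks in the KLF1, GFI1B and BCL11A windows by distance in kb from the strongest WT GATA2 summit (x axis), with the summit pileup in reads per M ChIP reads (y axis) drawn upward for WT and downward for Q592*. RUNX1 stems are absent from the WT side at KLF1 and BCL11A, and the SMC3 stems at BCL11A stand at positions without GATA2 or RUNX1.

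Across the loci, most RUNX1 peaks lay on GATA2 peaks. In WT 6 of 6 RUNX1 peaks (100%, 54.1 to 100%) overlapped a GATA2 peak of the same line, and in Q592* 13 of 16 did (81.2%, 54.4 to 96.0%), against 75.0% and 74.9% of all RUNX1 peaks of each line. The distance between the paired summits was 4 to 134 bp in WT (median 26.5, 6 pairs) and 6 to 164 bp in Q592* (median 23, 13 pairs). Between the lines, the summits of shared regions, which overlap by their definition, differed by a median of 10 bp for GATA2, 16.5 bp for RUNX1 and 10 bp for SMC3, against 20, 19 and 17 bp genome-wide.

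SMC3 overlapped 7 of the 23 WT GATA2 peaks (30.4%, 13.2 to 52.9%) and 3 of the 39 Q592* GATA2 peaks (7.69%, 1.62 to 20.9%), near the shares over all GATA2 peaks of 26.3% and 11.7%. NFE2 held 6 of the 7 WT overlaps and GFI1B the other. With lists of equal length the shares were 8.70% in WT (2 of 23) and 9.09% in Q592* (3 of 33), so the gap between the lines was not present there. At full length SMC3 also overlapped 2 of the 6 WT RUNX1 peaks (33.3%, 4.33 to 77.7%) and 2 of the 16 Q592* RUNX1 peaks (12.5%, 1.55 to 38.3%), against 49.2% and 25.1% of all RUNX1 peaks. With lists of equal length these shares were 16.7% in WT (1 of 6) and 18.2% in Q592* (2 of 11), counts too small to order the lines. GATA2 of WT was present at 5 of the 11 WT-only SMC3 regions and at 2 of the 11 called in both lines; genome-wide those shares were 46.2% and 16.04%.

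Of the 57 joined sites, WT had 2 with all 3 proteins, 4 with GATA2 and RUNX1, 5 with GATA2 and SMC3, 12 with GATA2 alone, 15 with SMC3 alone, 0 with RUNX1 alone and 19 with no call. Q592* had 2 with all 3, 11 with GATA2 and RUNX1, 1 with GATA2 and SMC3, 25 with GATA2 alone, 11 with SMC3 alone, 3 with RUNX1 alone and 4 with no call. GATA2 alone was the most frequent type in Q592*, and in WT it was sites with no call. Sites join the lists of both lines, so a site with no call in WT was called only in Q592*. Genome-wide, 40.1% of GATA2 regions and 44.4% of RUNX1 regions were called in Q592* only. The shares of these site types over the genome were not computed.

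Within their own lists, the GATA2 and RUNX1 peaks of these loci stood high by pileup and −log10 q, but not by the deposited fold in WT. The median deposited fold at the shared WT regions was 3.999 for GATA2 and 3.44 for RUNX1, against 4.80 and 4.70 genome-wide. The median GATA2 pileup in the windows was 1.28 reads per M in WT, against 0.437 over the list, and 1.03 against 0.585 in Q592*. For RUNX1 it was 1.19 against 0.468 in WT and 1.21 against 0.637 in Q592*. At BCL11A the median GATA2 pileup lay below that of the list, at 0.298 in WT and 0.510 in Q592*. By −log10 q, 4 of 23 WT GATA2 peaks (17.4%) and 7 of 39 Q592* GATA2 peaks (17.9%) stood in the top 5% of their list, as did 2 of 6 WT and 3 of 16 Q592* RUNX1 peaks and 0 SMC3 peaks of either line. Peaks of KLF1 and BCL11A were not among those in the top 5%. The local background was also higher in the windows, with a median of 4.72 against 1.51 over the list for GATA2 in WT.

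The GATA2 regions called in Q592* only had a lower median pileup than the shared ones. Their pileup ran from 0.349 to 1.18 reads per M (median 0.670, 16 regions), against 0.453 to 7.28 (median 2.19, 23 regions) at the shared regions in Q592*. Those ranges overlap, and the genome-wide medians in Q592* were 0.415 and 0.849 in the same order. For RUNX1 the Q592*-only regions ran from 0.337 to 1.81 reads per M (median 0.834, 10 regions) and the shared ones from 1.35 to 3.56 (median 2.06, 6 regions), against genome-wide medians of 0.515 and 0.796.

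Few peaks lay near the window limits. Just inside the end of the KLF1 window, 0.426 kb from it, lay the RUNX1 peak at 13019575, and the nearest peak outside was RUNX1 of Q592* at 13025032, 5.03 kb beyond, with 1.22 reads per M. At GFI1B the nearest outside peak was SMC3 of WT at 135900868, 0.867 kb beyond the end with 0.425 reads per M, and the nearest inside was SMC3 of Q592* at 135897933. At NFE2 the nearest outside peak, GATA2 of Q592* at 54666874, lay 3.13 kb before the start with 0.368 reads per M. The outside neighbours of ZFPM1 lay 176 kb before and 65.3 kb beyond, and those of BCL11A 16.6 kb before and 19.4 kb beyond.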

How the data were processed

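The deposited files are 6 narrowPeak lists on hg19, 1 per line and target, and the word merge in their peak names led them to be read as pooled calls. Bowtie2, Picard and MACS2 are named, without a version or setting, in the submitters' processing notes, and both are otherwise not given in the sources used here. Each list gives the authors' fold enrichment ratio at the summit, the −log10 of its deposited p-value and of its q-value, and a deposited score, which was not used.

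Whole ChIP reads at each summit and the local background were solved from the deposited fold and −log10 p with the Poisson formula of MACS2, and 100% of peaks in every list came out whole within 0.002 on −log10 p. The totals assume an effective genome of 2700000000 bp and a fragment as long as the narrowest peak of the list (126 to 157 bp), so the pileup per M rests on both. Peaks sharing at least 1 bp were taken as overlapping. Shares have exact Clopper-Pearson and pileup ratios exact conditional binomial intervals, at 95%; PCR duplicates and library differences are not in them. No test between lines was possible. The calculation was tested on simulated data. Alternatives were trimming lists to equal length, keeping only peaks with −log10 q of 10 or more, a common pileup threshold, any base in the window, reciprocal overlap of 50%, summits within 200 bp, the deposited fold in place of the pileup and, chosen after seeing the data, mean coverage as the scale and leaving out NFE2.

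The loci, motifs and comparisons were chosen with earlier results of these data known. Regions were named by rule: the strongest per target and window in each line by −log10 q, every site with all 3 targets, and the strongest per window called in 1 line. Others given by position were chosen after their values were seen. Motifs in the peaks, gene features at them and other erythroid genes were not analysed here, for lack of an hg19 sequence and annotation. Python 3.11.15, pandas 2.3.3 and scipy 1.17.1 were used.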

Additional observations from a re-analysis of the deposited data

How the results depend on the processing

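No paired analysis was possible because there is 1 list per line and target, with no values per library; for the same reason no library could be left out. Of the 87 counts and shares under alternatives, 76 stayed within 1.5 times (counts) or within the 95% interval of the share as deposited, which is wide. Of the shares within that interval, that of Q592* GATA2 peaks with SMC3 was 3.03% with a −log10 q of at least 10, and that of Q592* RUNX1 peaks with SMC3 was 6.25% with the pileup threshold or a reciprocal overlap of 50%. With a −log10 q of at least 10, the Q592*-only RUNX1 regions were 5, the Q592*-only SMC3 regions 1 and the WT-only SMC3 regions 3, and SMC3 overlapped 5.26% of WT GATA2 peaks, 0% of WT RUNX1 peaks and 0% of Q592* RUNX1 peaks. With lists of equal length, there was 1 WT-only GATA2 region, and the Q592*-only RUNX1 regions were 5, the WT-only SMC3 regions 4 and the share of WT GATA2 peaks with SMC3 8.70%. Without the NFE2 window, chosen after seeing the data, 3 WT-only SMC3 regions were left. With the deposited folds the median log2 ratio (Q592* over WT) became 0.84 at GATA2, 1.46 at RUNX1 and 0.37 at SMC3 regions. With pileup over mean coverage it became 0.62, 0.68 and −0.21, which reversed SMC3. The stricter settings remove weak peaks by their construction; what else differs between the lists was not tested. Of 30 counts of peaks per window, 22 stayed within 1.5 times with the −log10 q limit, 25 with equal lengths, 29 with the pileup threshold and 30 with any base in the window, and all that moved further were lower. The weakest peaks rest on few reads, such as the 33 and 31 reads of WT GATA2 at BCL11A and the 29 of the Q592* SMC3 peak at GFI1B.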
